A study of Mus musculus with 5 samples.

Results

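The 10 genes followed here encode neutrophil granule proteins and calprotectin, and they were measured through 5 single-cell RNA libraries of mouse bone marrow that each counted 27998 genes. They were chosen by name. Mpo, Elane, Prtn3 and Ctsg encode proteins of the primary granule, Ngp, Camp, Ltf and Lcn2 proteins of the secondary granule, and S100a8 and S100a9 the cytosolic pair calprotectin. The libraries came from Nes-GFP mice, which carry a green fluorescent reporter under control of Nestin sequences, and that strain was shared by all groups. Young mice were 10 to 12 weeks old (replicates 1, 2 and 3) and aged mice were over 20 months old (replicates 2 and 3). Cells without the blood marker CD45 and with the endothelial marker CD31 were sorted from preparations of the inner bone surface and passed through a freeze and thaw before droplet capture. The method counts RNA molecules at their 3′ end by unique molecular identifiers (UMIs). Whether a library pooled several animals is not given in the sources used here, so p-values measure only the spread between these libraries.

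Neutrophils arise in bone marrow from dividing progenitors and fill their granules in sequence. Promyelocytes make the primary, or azurophil, granules, which hold myeloperoxidase (Mpo) and the serine proteases neutrophil elastase (Elane), proteinase 3 (Prtn3) and cathepsin G (Ctsg). Myelocytes and metamyelocytes then stop making these and fill the secondary, or specific, granules with lactoferrin (Ltf), lipocalin 2 (Lcn2), the cathelicidin antimicrobial peptide (Camp) and neutrophilic granule protein (Ngp). S100a8 and S100a9 encode a calcium-binding pair that is very abundant in the cytosol of maturing neutrophils. Primary granule genes are also transcribed in early monocyte progenitors.

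The members lie in groups on the genome. In GRCm38 Prtn3 (chr10:79874476-79883174) and Elane (chr10:79886247-79888215) are neighbours on the plus strand with 3.07 kb between them. S100a8 (chr3:90668978-90670035, plus) and S100a9 (chr3:90692632-90695721, minus) are 22.6 kb apart. Camp (chr9:109847379-109849617, minus), Ngp (chr9:110419747-110423012, plus) and Ltf (chr9:111019271-111042767, plus) share chromosome 9 with gaps of 570.1 and 596.3 kb. Mpo (chr11:87793581-87804413, plus), Ctsg (chr14:56099881-56102574, minus) and Lcn2 (chr2:32384633-32388252, minus) stand alone. All 10 are protein-coding.

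The 250 bases before the RefSeq start of each member were searched on both strands for 3 letter patterns that are known from myeloid promoters. All 10 members matched the RefSeq promoter table (GRCm38.p6). TTGCNNAA, a form bound by C/EBP factors, was found in 4 members (S100a9, Ngp, Ltf and Lcn2) and in 9.56% of all 32851 windows. GAGGAA, the core bound by PU.1, was found in 7 members, with all 4 primary granule genes among them, and in 23.3% of windows. TGTGGT, a form bound by RUNX factors, was found in 2 members (Ctsg and S100a9) and in 14.0% of windows. Camp had no match to any of the patterns. The windows of Prtn3 and Lcn2 lie wholly inside the gene spans given above, so their matches are not upstream of those spans. The windows of Mpo, Elane, S100a8, Ngp, Camp and Ltf reach into those spans in part. Matches in the members did not overlap each other. A match describes letters only. The stretches below lie before both the RefSeq and the GENCODE start and are shown because their genes carry the contrast between the primary, calprotectin and secondary groups. They read 5′ to 3′ on the strand of the gene, and capitals mark a match to 1 of the patterns.
Elane (chr10:79886062-79886246, plus strand): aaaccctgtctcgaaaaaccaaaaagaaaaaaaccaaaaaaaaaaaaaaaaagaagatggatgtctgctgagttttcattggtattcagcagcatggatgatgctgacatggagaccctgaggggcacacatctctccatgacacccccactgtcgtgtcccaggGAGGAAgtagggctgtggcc
Ctsg (chr14:56102575-56102824, minus strand): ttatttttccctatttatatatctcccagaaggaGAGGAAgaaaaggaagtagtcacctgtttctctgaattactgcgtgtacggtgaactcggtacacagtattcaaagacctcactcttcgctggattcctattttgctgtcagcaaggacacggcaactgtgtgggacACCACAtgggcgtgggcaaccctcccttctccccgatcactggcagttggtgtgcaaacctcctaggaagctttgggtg
S100a9 (chr3:90695722-90695971, minus strand): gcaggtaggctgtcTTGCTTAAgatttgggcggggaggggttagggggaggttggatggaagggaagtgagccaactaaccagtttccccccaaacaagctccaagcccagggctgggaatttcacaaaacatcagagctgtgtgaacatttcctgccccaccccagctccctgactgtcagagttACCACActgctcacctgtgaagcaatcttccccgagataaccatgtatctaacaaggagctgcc
Ngp (chr9:110419558-110419746, plus strand): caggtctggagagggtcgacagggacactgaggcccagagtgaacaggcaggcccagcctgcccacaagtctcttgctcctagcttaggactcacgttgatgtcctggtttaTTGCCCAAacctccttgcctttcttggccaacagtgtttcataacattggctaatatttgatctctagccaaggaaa
Ltf (chr9:111019042-111019270, plus strand): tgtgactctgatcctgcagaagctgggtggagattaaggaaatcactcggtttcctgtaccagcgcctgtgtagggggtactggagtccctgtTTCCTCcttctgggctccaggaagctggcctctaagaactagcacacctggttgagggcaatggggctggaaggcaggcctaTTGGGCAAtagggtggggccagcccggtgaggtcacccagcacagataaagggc
The Elane stretch held the PU.1 core, the Ctsg stretch that and the RUNX form, and the Ngp stretch the C/EBP form. The Ltf stretch held the C/EBP form and the PU.1 core, and the S100a9 stretch the C/EBP and RUNX forms.

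Of 3384 barcodes, 2116 were kept as cells, of which young replicates 1, 2 and 3 gave 890, 226 and 316, and aged replicates 2 and 3 gave 282 and 402. Library totals ranged from 935656 to 5900751 UMIs and the median of a kept cell from 1889.5 to 4212.5. Young replicate 1 was the deepest library and held 185 of the 211 cells outside the B lineage, so most myeloid values below come from it. The labels name endothelial cells, but 1905 of the 2116 cells were of the B lineage and 21 were endothelial-like. Libraries also shared cell barcodes. There were 26 shared pairs, of which 20 joined the young and aged library of the same replicate number (11 for number 2 and 9 for number 3), against 0 to 3 for any other pair of libraries. Among the 30 kept barcodes in such pairs were 2 of the granulocyte-like cells described next, both in young replicate 3. Their part is shown by values without them for the lists, the order, the likeness, the shares and the comparisons of age. The values of single cells and the background shares are given with them.

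Cells were clustered without the 10 members, and 1 of 11 clusters was granulocyte-like. It held 20 of the 2116 cells, with 17 in young replicate 1, 2 in young replicate 3, 1 in aged replicate 3 and 0 in young and aged replicate 2. Of 20 granulocyte markers other than the members, 17 had a UMI in at least 10% of its cells. Wfdc21, Pglyrp1 and Hp were in all 20 cells, while Cxcr2, a receptor of mature neutrophils, was in 0. Erythroid and megakaryocyte markers reached that level for 0 genes. Among 15 monocyte markers 3 did so, and Csf1r, the receptor of the monocyte growth factor, was at 0 UMIs. Of 13 B-lineage markers 12 did so, and the 13 had 1 to 35 UMIs each over the 20 cells. The part of these UMIs in the results was not tested. Ptprc, the gene of CD45, had a UMI in 12 of the 20 cells, and Pecam1, the gene of CD31, in 7.

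The 20 cells fell into 2 sets with nothing between them. Secondary granule UMIs summed to 0 to 2 in 16 cells and to 972 to 1339 in the other 4. All 16 primary-high cells came from young replicate 1. The 4 secondary-high cells were 2 from young replicate 3, 1 from young replicate 1 and 1 from aged replicate 3. Total UMIs per cell were higher in the primary-high cells (9314 to 27890, median 19254) than in the secondary-high cells (6610 to 10417, median 9181.5). Since the split is in the members themselves, it is a description and was not tested.

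**Figure D1:**
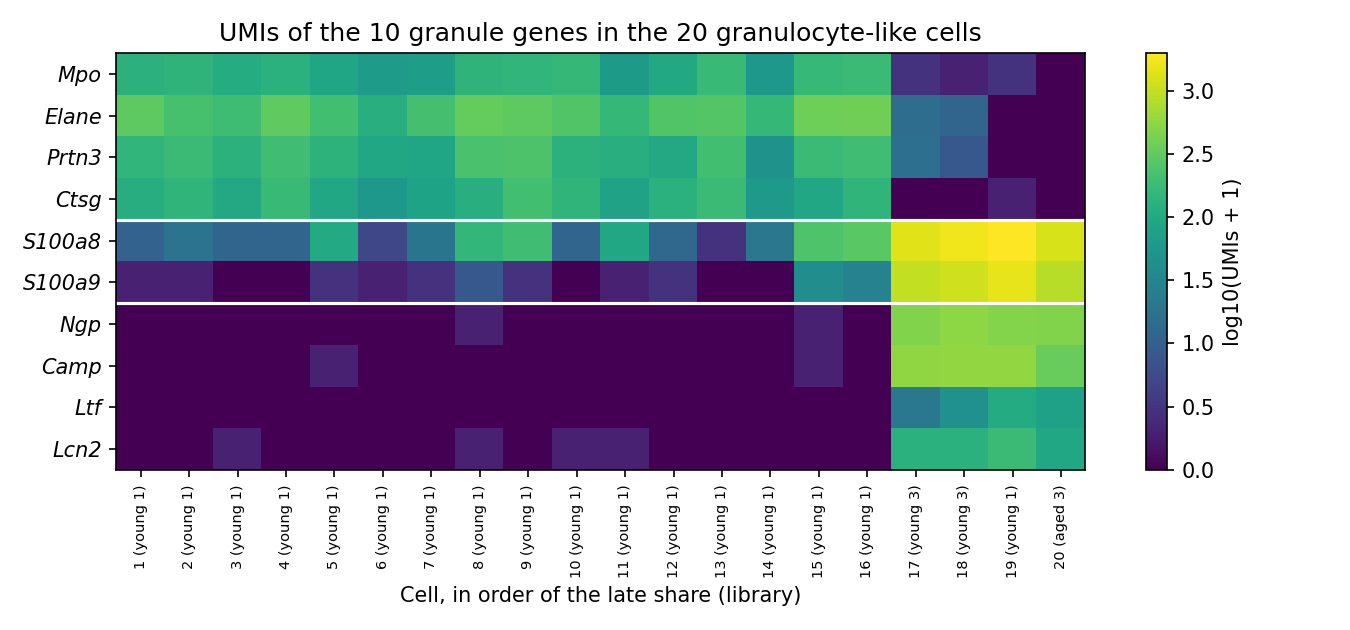
Each column is 1 of the 20 granulocyte-like cells with its library in brackets, ordered by the late share of UMIs in lists that hold no member, and colour gives log10(UMIs + 1) of each gene. Cells 1 to 16 hold the primary granule genes and cells 17 to 20 the secondary ones, with S100a8 present in all 20.

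In the 16 primary-high cells all 4 primary granule genes were abundant together. Elane was at 115 to 382 UMIs per cell (median 252), Prtn3 at 49 to 236 (median 142), Mpo at 56 to 176 (median 127.5) and Ctsg at 57 to 196 (median 113.5). Every cell held all 4, and Elane had the most UMIs of the 4 in each of them, on a 3′ count that does not grow with transcript length. Together they made up 201.1 to 514.7 of every 10000 UMIs in these cells. Of the secondary members Ltf, the iron-binding lactoferrin, had 0 UMIs in all 16 cells, and Ngp, Camp and Lcn2 had at most 1 in any of them. Ltf at 0 of 307832 UMIs stands beside 2 UMIs of Ngp, 2 of Camp and 4 of Lcn2.

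S100a8 was present in all 16 primary-high cells but at very different levels. It was at 2 to 19 UMIs in 10 cells and at 93 to 284 in 6, with no cell between 19 and 93. S100a9 was far lower, at 0 to 2 UMIs in the 10 cells and 1 to 40 in the 6. The 2 cells with the highest S100a9 (40 and 28 UMIs) also had the highest S100a8 (241 and 284) and the highest Elane (372 and 382). They were cells 15 and 16, the last of the 16 in the order set by genes other than the members. Per 10000 UMIs, Prtn3 was at 83.9 to 110.5 in the 6 S100a8-high cells and at 49.1 to 87.0 in the 10 others. Ctsg overlapped more, at 53.5 to 82.9 against 34.8 to 77.6. These cells all come from 1 library and are not replicates.

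In the 4 secondary-high cells the granule transcripts dominated the whole cell. The 10 members together made up 40.3% and 39.99% of all UMIs in the young replicate 3 cells, 51.4% in the young replicate 1 cell and 47.1% in the aged replicate 3 cell. In the same order S100a8 was at 1404, 1693, 1983 and 1267 UMIs and S100a9 at 998, 1153, 1503 and 872. Ngp was at 463, 553, 481 and 470 UMIs and Camp at 565, 576, 575 and 336. Lcn2, which binds bacterial siderophores, was at 128, 127, 176 and 91, and Ltf at 20, 45, 107 and 75. The aged cell was lowest for S100a8, S100a9, Camp and Lcn2 in UMIs, and also had the fewest UMIs in all. Per 10000 UMIs its Ngp, at 711.0, was the highest of the 4 (511.8 to 530.9 in the others).

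Some of these cells also held a few UMIs of the primary granule genes. The 2 young replicate 3 cells had 14 and 11 UMIs of Elane, 15 and 7 of Prtn3, 2 and 1 of Mpo and 0 of Ctsg. The young replicate 1 cell had 2 of Mpo and 1 of Ctsg, and the aged replicate 3 cell had 0 of all 4. B-lineage cells of young replicate 3, by comparison, had 1 UMI of Elane and 0 of Prtn3 in 310 cells. The young replicate 3 cells also had 7 and 6 UMIs of Ms4a3, a marker of early granulocyte progenitors, and 22 and 36 of Fcnb, the ficolin of myelocytes. The young replicate 1 cell had 0 and 1 of these, and the aged replicate 3 cell 0 and 0. Both young replicate 3 cells carry a shared barcode, so the only secondary-high cells with Elane and Prtn3 are also those whose barcodes occur in another library.

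The cells were also ordered by genes other than the members. The order was the share of late-list UMIs (18 genes such as Lyz2, Chil3 and Cd177) in the sum of the late and an early list (10 genes such as Ms4a3, Nkg7 and Prss57). The late list holds 8 of the 15 other secondary and gelatinase granule genes counted below, and the early list 2 of the 10 other primary granule genes (Prss57 and Ctsc). The lists thus draw on the same programmes as the members, and the order is a description that does not test them. The 16 primary-high cells lay at 18.1% to 35.6% and the 4 secondary-high cells at 95.3% to 99.7%, with no cell between. Among the first 7 cells the median of the 4 primary genes was 309.8 per 10000 UMIs, among the next 7 it was 322.5, and among the last 6 it was 26.4. The same medians were 5.65, 20.4 and 2706 for calprotectin, and 0, 0 and 1280 for the secondary genes. Calprotectin thus had its values spread over the whole order, while the 16 cells before the gap held 8 secondary UMIs in all. The last 6 cells include the 2 primary-high cells of highest S100a8. No library held 50 such cells, so the order is given as counts over 20 cells without a test. On the first principal component of these cells, computed without the members, the primary median of the last 6 cells was 188.2. Without the 2 shared barcodes only 2 secondary-high cells were left among 18, and the last 6 of these cells had medians of 327.3 for the primary and 0.624 for the secondary genes. A median of 6 cells cannot show the values of 2 of them, so these medians do not decide whether the drop depends on the shared barcodes. Cells 19 and 20, the 2 secondary-high cells left, had 3.19 and 0 primary UMIs per 10000. Cells 17 and 18, which share barcodes, had 34.6 and 18.2.

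**Figure D2:**
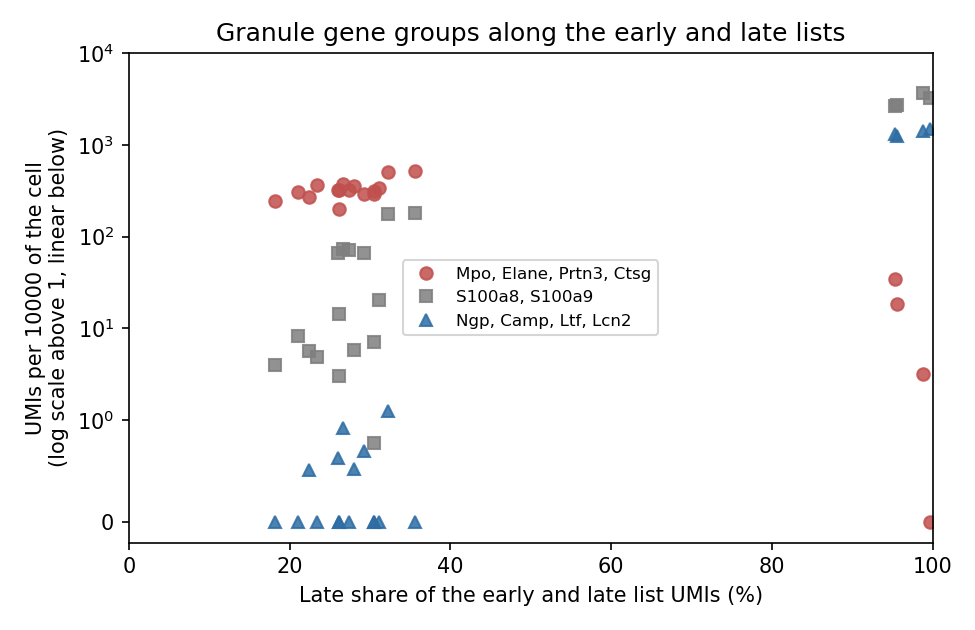
Each cell is plotted at its late share (percent, x axis) with the summed UMIs per 10000 of the primary genes (circles), calprotectin (squares) and secondary genes (triangles) on the y axis, which is logarithmic above 1 and linear below. Primary genes fall from 201.1 to 514.7 at the left to 0 to 34.6 at the right, secondary genes rise from 0 to 1.25 to 1249 to 1471, and calprotectin spans 0.780 to 3709.

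Primary and secondary genes were counted together in single cells. With at least 2 UMIs summed over each group of 4 genes, 19 of the 20 cells held the primary group, 6 the secondary group and 5 both. That is 26.3% of the 19 primary-positive cells (exact binomial 95% interval 9.15 to 51.2, counting error only). The 5 were cells 8 and 15, each with 2 secondary UMIs, and cells 17, 18 and 19, with 3 to 31 primary UMIs. The 99th percentile of B-lineage cells was 4 primary UMIs and 1 secondary UMI in young replicate 1, and 0 and 2 in young replicate 3. The 3 primary UMIs of cell 19, from young replicate 1, thus lie within the background of its library. Above those percentiles 4 of 18 cells (22.2%) held both. The percentiles are raw UMIs and are not matched for depth. Cells 8 and 15, which are among the 4, held 21696 and 16013 UMIs in all. The medians in young replicate 1 were 4181.5 UMIs for dividing and 2332 for non-dividing B-lineage cells. Whether their 2 secondary UMIs exceed the background at their depth was not tested. At 5 UMIs 2 of 18 primary-positive cells held both, and both were the shared-barcode cells of young replicate 3. Without shared barcodes 3 of 17 held both at 2 UMIs (17.6%). Over all 2116 cells at 5 UMIs, 142 held the primary group, 4 the secondary group and 2 both. Calprotectin was detected at 2 UMIs in all 20 granulocyte-like cells, and hence in all 6 secondary-positive ones.

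Other granule genes were counted from lists. Of 15 other genes of secondary and gelatinase granules, 12 were higher per 10000 UMIs in the secondary-high cells, 0 in the primary-high cells and 3 had no UMI. Of these 15, Chil3, Pglyrp1, Hp, Fcnb, Cybb, Cd177, Mmp8 and Mmp9 are also on the late list that set the order. Chil3 had 298 UMIs in the 4 cells against 0 in the 16, and Pglyrp1 was at 40.1 against 5.98 per 10000. Cyba, a subunit of the NADPH oxidase, was at 16.7 against 5.65, and Hp, haptoglobin, at 11.3 against 3.15. Of 10 other primary granule genes, 4 were higher in the primary-high cells, 5 in the secondary-high cells and 1 had no UMI. Srgn, the proteoglycan core that packs granule proteases, was at 38.9 per 10000 in the primary-high and 7.06 in the secondary-high cells. Lyz2, lysozyme, went the other way at 0.747 against 154.6. Cd63, a granule membrane protein, was at 11.7 against 8.48, and the protease gene Prss57 at 4.35 against 0.283. Over all 9683 genes with a UMI, 7448 were higher in the primary-high and 2235 in the secondary-high cells, and the lists are read beside that background. These values are per 10000 of all UMIs, members included. The members took 2.04% to 6.94% of UMIs in the primary-high cells and 39.99% to 51.4% in the secondary-high cells. Other genes are thus lowered in the secondary-high cells. Small differences such as that of Cd63 are not read as a direction, and the counts include such genes. Of 9 granulocyte transcription factors, 5 were higher in the primary-high cells. Myb, which keeps progenitors dividing, was at 2.14 against 0.848 and Cebpb at 2.08 against 0.848, while Spi1, which encodes PU.1, was at 1.43 against 3.96. Cebpe, needed for secondary granule genes, was at 1.01 against 1.41, from 31 and 5 UMIs. These counts were repeated with only the 2 secondary-high cells that share no barcode. Of the 15 secondary and gelatinase granule genes 12 were again higher in the secondary-high cells and 0 in the primary-high cells. Of the 10 primary granule genes 5 were then higher in the primary-high and 4 in the secondary-high cells. For the factors 6 of 9 were higher in the primary-high cells, beside 7970 of 9578 genes. In those 2 cells Srgn was at 11.2 per 10000, Spi1 at 7.496 and Cebpb at 1.87. After thinning to 1000 UMIs per cell, 8 of the 16 primary-high and 1 of the 4 secondary-high cells held at least 2 of 10 cell cycle genes.

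The genes most like each group over the 20 cells are given as descriptions. For the primary group genes among those with the highest Pearson correlations of log values were Rps19 (0.99), Rpl13a (0.99), Rpl13 (0.98) and Rpl11 (0.98), which encode ribosomal proteins. For the secondary group they were Chil3 (0.97), Lyz2 (0.97), Ifitm6 (0.95), Cybb (0.95) and Cd177 (0.93). For calprotectin they were Wfdc21 (0.90), Lyz2 (0.87), Ncf4 (0.86), Pglyrp1 (0.86) and Fcer1g (0.85). They were taken from 5896 genes seen in at least 20% of these cells. The coefficients describe a contrast of 16 cells with 4, and 17 of the 20 cells share 1 library. Over the 18 cells without shared barcodes Chil3 was at 0.96, Lyz2 at 0.95 and Cybb at 0.90 for the secondary group, and Wfdc21 at 0.89 and Lyz2 at 0.80 for calprotectin.

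Primary granule genes were not restricted to the granulocyte-like cells. In young replicate 1 all 4 were detected in 16 of 17 granulocyte-like cells, 37 of 41 monocyte-like cells, and 35 of 61 cells of a cluster led by Irf8 and Gcnt2. They were together in 8 of 50 cells of a cluster led by Ctla2a and Dntt, 2 of 7 basophil-like cells and 3 of 705 B-lineage cells. Their sum was 320.3 UMIs per 10000 in the granulocyte-like, 111.8 in the monocyte-like, 55.9 in the Irf8 and Gcnt2, 31.6 in the basophil-like and 11.1 in the Ctla2a and Dntt cells. Single monocyte-like cells reached 590 UMIs. The same cells held almost no calprotectin or secondary UMIs. S100a8 was at 0.217 per 10000 in the monocyte-like cells and 0.0875 in the Irf8 and Gcnt2 cells, against 0.101 in B-lineage cells of that library. In CPM, the UMIs of a gene per 1000000 UMIs, this was 21.7 (95% interval 11.6 to 37.1) in the monocyte-like and 10.1 (7.10 to 14.0) in the B-lineage cells, and the intervals overlap. S100a8 had a UMI in 11 of 41 monocyte-like cells (26.8%, median depth 14021 UMIs). After thinning to 1000 UMIs it was in 0 of 41 monocyte-like and 0 of 61 Irf8 and Gcnt2 cells. At that depth it was in 8 of 586 dividing and 0 of 119 non-dividing B-lineage cells of that library. A gene this low is rarely drawn in 1000 UMIs, so the 0 counts cannot show absence. The clusters outside the B lineage, apart from the granulocyte-like one, were separated at a resolution chosen after seeing the data. Monocyte-like cells were named from 10 of 15 monocyte markers that had a UMI in at least 10% of the cells of their cluster. That cluster also reached this level for 11 of 20 granulocyte markers, and 1 of its 43 cells was granulocyte-like.

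The make-up of the primary transcripts differed between these classes. Elane gave 39.4% (95% interval 38.4 to 40.3) of the UMIs of the 4 genes in the granulocyte-like cells of young replicate 1, 29.6% (28.5 to 30.7) in monocyte-like cells and 14.6% (13.5 to 15.7) in the Irf8 and Gcnt2 cells. In the Ctla2a and Dntt cells it gave 7.28% (4.85 to 10.4). Prtn3, its neighbour on chromosome 10, went the other way, with 23.5%, 29.8%, 31.4% and 45.8%. The ratio of Prtn3 to Elane UMIs was 0.596, 1.01 and 2.15 in the first 3 classes. In the Ctla2a and Dntt cells Elane had only 27 UMIs, at 81.1 CPM (95% interval 53.5 to 118.1), beside 60.5 in B-lineage cells of that library. Its share there is thus close to background and is not read as a level, while Prtn3 was at 510.9 CPM beside 45.0. In the 7 basophil-like cells Ctsg gave 68 of 98 UMIs (69.4%, 59.3 to 78.3). The intervals do not overlap for Elane in the first 3 classes, but they cover counting error only and the cells of a class come from 1 library. The single monocyte-like cell of aged replicate 3 had 34 UMIs of Prtn3, 5 of Mpo, 3 of Ctsg and 0 of Elane, and its barcode is shared too.

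**Figure D3:**
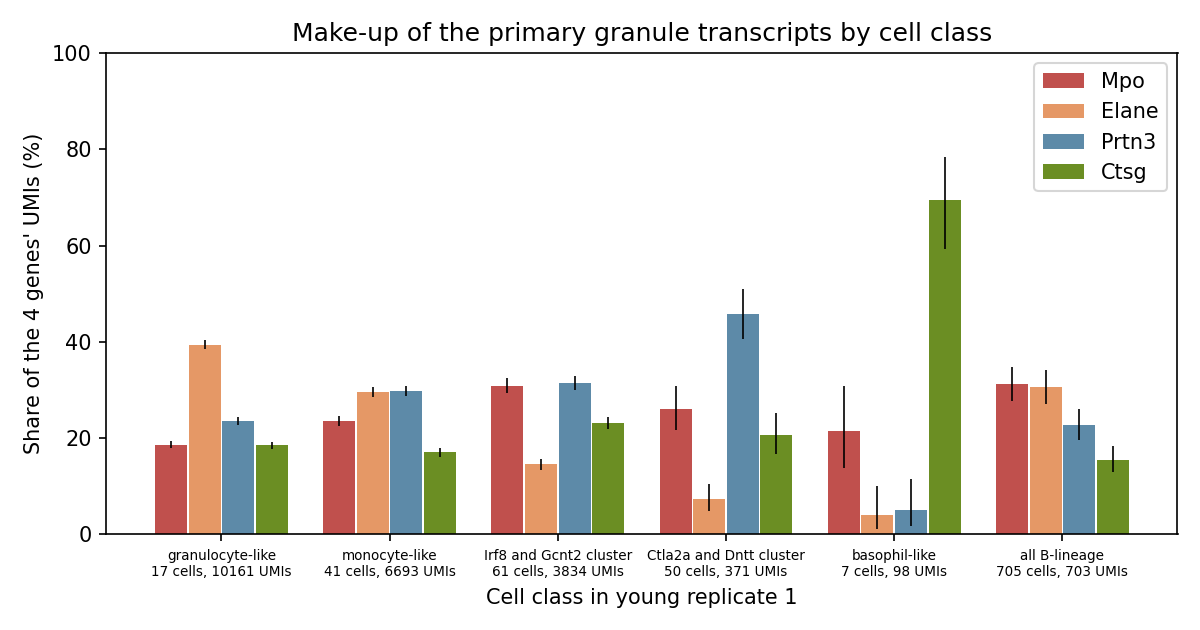
Bars give the share (percent, y axis) of each of the 4 primary granule genes in their summed UMIs for 6 cell classes of young replicate 1 (x axis), with exact binomial 95% intervals. Elane leads at 39.4% in granulocyte-like cells, Prtn3 at 45.8% in the Ctla2a and Dntt cells and Ctsg at 69.4% in the basophil-like cells.

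B-lineage cells, which should lack these transcripts, held them at levels that differed by library. The 10 members had 821 UMIs in 705 B-lineage cells of young replicate 1, 2 in 223 cells of young replicate 2 and 128 in 310 cells of young replicate 3. They had 15 in 281 cells of aged replicate 2 and 101 in 386 cells of aged replicate 3. In CPM these were 231.1, 2.44, 179.9, 15.8 and 112.9. The 2 libraries without granulocyte-like cells were the lowest. At least 1 member was found in 64.0% of B-lineage cells in young replicate 1 and in 0.897% in young replicate 2, at median depths of 4212.5 and 2748 UMIs over all kept cells. No B-lineage cell held more than 8 member UMIs.

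The kind of background transcript also differed by library. In young replicate 1, which held 16 primary-high cells, 85.6% (95% interval 83.0 to 88.0) of the background UMIs were of the 4 primary genes. All cells outside the B lineage of that library held 21332 primary UMIs, of which 10161 were in granulocyte-like cells. In young replicate 3, whose granulocyte-like cells were both secondary-high, the share was 2.34% (0.486 to 6.70), and in aged replicate 3 it was 17.8% (10.9 to 26.7). Mpo was in 25.5%, Elane in 25.4%, Prtn3 in 20.3% and Ctsg in 14.3% of B-lineage cells of young replicate 1. The highest such share for any of these genes in another library was 2.07%, for Mpo in aged replicate 3. S100a9 was in 10.3%, Ngp in 9.03%, Camp in 8.71% and S100a8 in 7.10% of B-lineage cells of young replicate 3. In aged replicate 3 they were in 6.74%, 3.63%, 3.37% and 4.92%. In young replicate 2 the 6 calprotectin and secondary genes had 0 UMIs in 223 cells, which allows at most 3.66 CPM for each.

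**Figure D4:**
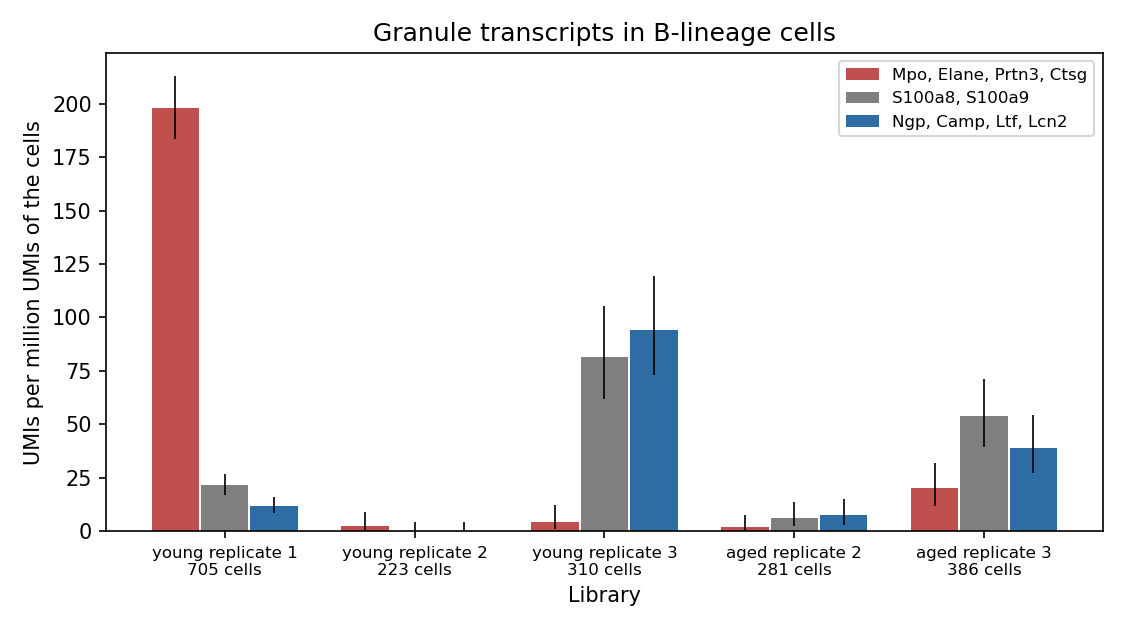
Bars give CPM (UMIs per 1000000 UMIs, y axis) for the primary genes, calprotectin and the secondary genes summed over B-lineage cells of each library (x axis), with exact Poisson 95% intervals that cover counting error only. Primary genes stand at 197.8 in young replicate 1 and at 2.10 to 20.1 elsewhere, and secondary genes are highest in young replicate 3 at 94.1.

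The ratios of the background UMIs were set beside those of the cells of the same library. S100a8 gave 66.6% of the calprotectin UMIs in the granulocyte-like cells of young replicate 1, 59.0% in young replicate 3 and 59.2% in aged replicate 3. In B-lineage cells it gave 47.4% (95% interval 35.8 to 59.2), 37.9% (25.5 to 51.6) and 41.7% (27.6 to 56.8), and each interval lies below the pooled granulocyte-like value of its library. In young replicate 1 that value pools 2 kinds of cell. Its 16 primary-high cells held 1182 UMIs of S100a8 and 87 of S100a9, and cell 19, secondary-high, held 1983 and 1503. The S100a8 share of cell 19 alone lies within the background interval. For the Ngp share of Ngp and Camp the values were close, at 45.6% against 48.6% (31.4 to 66.0) in young replicate 1, 47.1% against 50.9% (37.3 to 64.4) in young replicate 3 and 58.3% against 51.7% (32.5 to 70.6) in aged replicate 3. In young replicate 1 Mpo gave 31.2% (27.7 to 34.7) of the background primary UMIs, against 18.6% in granulocyte-like, 23.6% in monocyte-like, 26.1% in Ctla2a and Dntt and 30.9% in Irf8 and Gcnt2 cells. The last of these lies within the interval of the background for Mpo, but not for the other genes. Elane gave 30.6% (27.2 to 34.1) of the background, Prtn3 22.8% (19.7 to 26.0) and Ctsg 15.5% (12.9 to 18.4). In the same order Irf8 and Gcnt2 cells were at 14.6%, 31.4% and 23.1%. Monocyte-like cells were at 29.6%, 29.8% and 17.1%, and granulocyte-like cells at 39.4%, 23.5% and 18.5%. None of these classes lay within the interval for every gene. The source of the background UMIs was not tested.

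Members were also counted at the shared barcodes in the partner library. The 2 granulocyte-like cells of young replicate 3 held 8965 and 10417 UMIs, and the same barcodes in aged replicate 3 held 687 and 660, too few to be kept as cells. Those 2 barcodes carried 107 UMIs of Ngp, 97 of Camp, 26 of Lcn2 and 7 of Ltf, which were 10.5%, 8.50%, 10.2% and 10.8% of the UMIs in young replicate 3. For S100a9 they carried 116 UMIs, or 5.39%, and for S100a8 60 UMIs, or 1.94%. They were the only barcodes below the filter in aged replicate 3 with at least 10 UMIs of calprotectin and secondary genes. The granulocyte-like cell of aged replicate 3 that passed the filter has a barcode of its own. Below the filter in young replicate 1, 25 barcodes had at least 10 primary UMIs and at most 1 UMI of the other members. All 25 were over the mitochondrial limit, at a median of 21.2% mitochondrial UMIs.

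**Figure D5:**
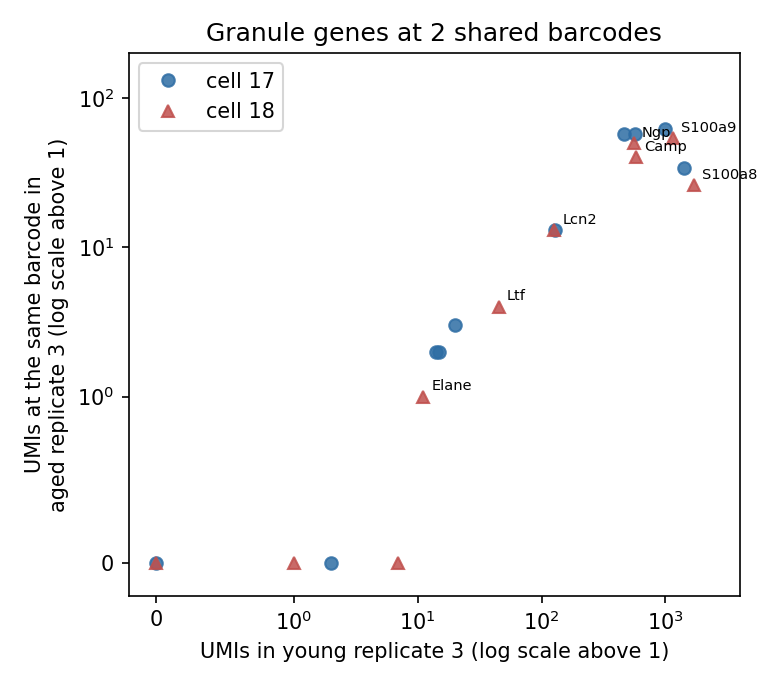
Each point is 1 member gene in cell 17 (circles) or cell 18 (triangles), with its UMIs in young replicate 3 on the x axis and its UMIs at the same barcode in aged replicate 3 on the y axis, both logarithmic above 1. S100a8, at 1404 and 1693 on the x axis, lies below S100a9, Ngp and Camp on the y axis, at 34 and 26.

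No member was called between aged and young libraries with the filter on low counts and no block. Values over all kept cells follow for young replicates 1, 2 and 3 and then for aged replicates 2 and 3. Elane was at 6858, 0 and 26 UMIs against 0 and 4. Prtn3 was at 5960, 6 and 22 against 1 and 37, Mpo at 5028, 4 and 5 against 1 and 14, and Ctsg at 4189, 1 and 0 against 0 and 7. Young replicate 1 stood above every other library for these genes, and the remaining young and aged libraries overlapped for Mpo, Elane, Prtn3 and Ctsg. S100a8 was at 3222, 0 and 3119 UMIs against 5 and 1289, and S100a9 at 1642, 0 and 2187 against 1 and 901. Ngp was at 507, 0 and 1048 against 3 and 485, Camp at 598, 0 and 1169 against 1 and 352, Lcn2 at 193, 0 and 262 against 3 and 95 and Ltf at 113, 0 and 70 against 0 and 77. For these genes young and aged libraries overlapped, with replicate 2 of both ages near 0. Scaled to depth, the order of the libraries differed from that of the raw sums. Over every deposited barcode S100a8 was at 547.0 CPM in young replicate 1, 3127 in young replicate 3 and 1035 in aged replicate 3. Ngp was at 86.1, 1051 and 461.6 CPM in the same libraries. Fewer cells of a type and less RNA per cell cannot be told apart in such sums.

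On these sums edgeR's quasi-likelihood test called 0 of 7838 genes (0% of genes tested). An unadjusted p under 0.05 was found for 128 genes. DESeq2 called 0 of 15830. Of 9 members that passed the filter on low counts 8 had lower and 1 higher estimates in aged libraries. Their median log2 fold change was -1.41, against -0.00165 over all genes tested. Elane did not pass the filter without young replicate 1 or without young replicate 3, the libraries where its sums were highest. It thus passed through the young group, so the count of directions and the median are partly set by the filter and are descriptions only. The log2 fold change, aged against young, was -7.88 ± 2.96 for Elane (SE, edgeR adjusted p = 0.997), -5.55 ± 2.48 for Mpo and -4.47 ± 2.21 for Prtn3. It was -1.34 ± 2.30 for S100a8, -1.29 ± 2.33 for S100a9, -1.69 ± 2.23 for Camp, -1.41 ± 1.76 for Lcn2, -1.06 ± 2.14 for Ngp and 0.03 ± 1.55 for Ltf. With no filter on low counts 11 of 15838 genes were called (0.0695%), and Elane was 1 of them (log2 fold change -8.00, edgeR adjusted p = 0.0455). Fits with the replicate number as a block used replicates 2 and 3 only, since young replicate 1 has no aged partner. With that block 8 of 7495 genes were called (0.107%), 3 of 7 members among them, all lower in aged libraries (S100a8, S100a9 and Camp). With the block and without the shared barcodes the direction turned. Then 39 of 7179 genes were called (0.543%), 4 of 4 members among them and all higher in aged libraries, at 5.40 for S100a8, 4.25 for S100a9, 3.46 for Ngp and 3.23 for Camp. In that fit young replicate 3 held 0 granulocyte-like cells and aged replicate 3 held 1. Without the shared barcodes and with no block the estimates also turned for S100a8 (1.52), S100a9 (1.83), Ngp (2.28), Camp (1.69) and Lcn2 (1.42), and the 4 primary genes no longer passed the filter. It turned for the same 5 genes without young replicate 3, at 0.95 for S100a8, 1.39 for S100a9, 2.13 for Ngp, 1.44 for Camp and 1.09 for Lcn2. Without young replicate 1 Prtn3 was at 0.09, and Elane and Mpo did not pass the filter. With the other libraries left out Elane lay between -12.83 and -6.87, with no value without young replicate 3, and Mpo between -8.42 and -4.61.

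The share of granulocyte-like cells did not pass either. For young replicates 1, 2 and 3 it was 1.91%, 0% and 0.633%, and for aged replicates 2 and 3 it was 0% and 0.249%. The means were 0.848% ± 0.973 (SD, n = 3) and 0.124% ± 0.176 (SD, n = 2), a difference of -0.723 points (two-sided exact permutation p = 0.5). The smallest p that 10 arrangements of 5 libraries allow is 0.1. A count of 0 allows up to 1.33% of cells in young replicate 2 and 1.06% in aged replicate 2. Without shared barcodes the difference was -0.514 points, and with each library left out in turn it lay between -1.15 and -0.192. Within replicate number 2 both libraries were at 0%, and within number 3 the young one was higher. Without shared barcodes the order within number 3 turned, at 0% in young replicate 3 and 0.251% in aged replicate 3. With a minimum of 200 genes per barcode young replicate 3 held 2 and aged replicate 3 held 3 such cells, 2 in each with shared barcodes. The order turned there too (0.501% against 0.569%).

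In non-dividing B-lineage cells the background UMIs were compared in the same way. For young replicates 1, 2 and 3 the share of cells with at least 1 member UMI was 45.4%, 0.503% and 32.5%, and for aged replicates 2 and 3 it was 4.69% and 19.3%. The means were 26.1% ± 23.1 (SD, n = 3) and 12.0% ± 10.3 (SD, n = 2), a difference of -14.2 points (two-sided exact permutation p = 0.5). After thinning each cell to 1000 UMIs the shares were 20.2%, 0%, 18.1%, 2.34% and 10.9%, and the difference was -6.11 points (exact permutation p = 0.6). The aged library had the higher share of the pair numbered 2 and the lower share of the pair numbered 3. Without young replicate 1 the difference was -4.53 points, and without aged replicate 2 it was -6.87. Without young replicate 2 it was -27.0, and without aged replicate 3 -21.4. On sums of these cells edgeR called 0 of 6445 genes (0% of genes tested). An unadjusted p under 0.05 was found for 119 genes. DESeq2 called 0 of 13784. S100a8 and S100a9 were the only members past the filter on low counts, at log2 fold changes of 0.18 ± 0.91 and -0.56 ± 1.10 (SE, edgeR adjusted p = 0.998 for both). With no filter 9 genes were called (0.0653%) and with the replicate block, on replicates 2 and 3 only, 17 of 6474 (0.263%), with 0 members in either. With the block and without shared barcodes 0 of 6457 were called (0%), and an unadjusted p under 0.05 was found for 306 genes.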

How the data were processed

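The deposited files hold whole-number UMI counts per gene and cell barcode, made by the authors with Cell Ranger on mm10, per the submitters' processing notes. The 10 members and all gene lists were chosen with earlier results of these data known. Barcodes were kept with at least 500 genes, at least 1000 UMIs and at most 10% mitochondrial UMIs. Scrublet (expected rate 2%) called 49 doublets, which were kept, and a fit without them is an alternative. Cells were clustered with scanpy 1.11.5 and leidenalg 0.10.2 (2000 variable genes, 30 components, 15 neighbours, resolution 0.8) without the members. Cells outside the B lineage were clustered again at resolution 0.8, chosen after seeing that 0.5 mixed classes. Counts summed per library were tested with edgeR 4.0.16 (quasi-likelihood, TMM, filterByExpr, Benjamini-Hochberg 0.05) in R 4.3.3. DESeq2 1.42.0, other filters and scalings, a replicate block and each library left out were alternatives. The edgeR script was tested on simulated data. Shares were compared by exact permutation over 10 arrangements. Intervals are exact binomial or Poisson at 95% and, like the limit of 3 counts allowed by a 0, cover counting error only. Named genes beyond the members are the 5 most correlated with each group and up to 4 of highest mean UMIs per list. 1 of them is not reported here. Cxcr2, Csf1r, Ptprc, Pecam1 and Fcnb were named outside this rule after their values were seen. Gene positions are from GENCODE on GRCm38, and 27645 of 27998 identifiers matched its symbols table.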

Additional observations from a re-analysis of the deposited data

How the results depend on the processing

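Of 205 alternative values for 17 results, 168 were labelled the same, 29 reversed, 7 stronger, 0 weaker and 1 moved. For single genes the same meant the same direction and side of the threshold, and for shares the same direction only. For counts of called members it meant an unchanged count. For co-detection it meant a value within the main interval, and for the order a move of less than the spread. In sums of all kept cells, 0 members were called, against 1 of 10 (Elane) with no filter on low counts. With the replicate block 3 of 7 members were called (S100a8 -1.58, S100a9 -1.69 and Camp -2.14, among 8 of 7495 genes, 0.107%). With the block and without shared barcodes 4 of 4 were called and higher (S100a8 5.40, S100a9 4.25, Ngp 3.46 and Camp 3.23, among 39 of 7179 genes, 0.543%). The same 4 libraries without the block gave 0 calls. The labels give the number only, with r = 0.387 for all kept cells and 0.265 for B-lineage cells, equal for both numbers by construction. In B-lineage sums the block called 17 of 6474 genes (0.263%) and no filter 9 of 13784 (0.0653%), with 0 members in either. The primary median of the last 6 cells minus that of the first 7 was -283.4 per 10000, and -124.9 along the first principal component. Without shared barcodes it turned to 38.2, and to 7.64 along that component. Only 2 secondary-high cells were then left, and a median of 6 cells cannot show their values. Directions turned in sums of all kept cells without shared barcodes for S100a8 (1.52), S100a9 (1.83), Ngp (2.28), Camp (1.69) and Lcn2 (1.42). Ltf (0.03) turned with DESeq2 (-0.0624), the replicate block (-0.31) and replicates 2 and 3 without it (-0.26), where Prtn3 was at 0.0897. With each library left out, values ranged from -12.83 to -6.87 for Elane and -8.42 to -4.61 for Mpo (neither passed the filter without young replicate 1, nor Elane without young replicate 3), from -8.69 to 0.0897 for Prtn3, -8.43 to 0.95 for S100a8, -10.11 to 1.39 for S100a9, -7.47 to 2.13 for Ngp, -9.16 to 1.44 for Camp, -9.19 to 1.43 for Ltf and -5.50 to 1.09 for Lcn2. In B-lineage sums S100a8 (0.18) was at -0.25 with every barcode and -0.0465 with dividing cells, and ranged from -1.19 to 0.92 with each library left out, as S100a9 did from -6.67 to 0.50. Scaling by library size alone put the median of all genes at 0.13 in the sums of all kept cells. The cause of these changes was not tested. Resolution 0.4 gave no granulocyte-like cluster and no value. Order and co-detection rest on 20 cells, 17 of them in 1 library.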
